A study of Mus musculus with 27 samples.

Results

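The comparison is of HepOrgs, which are organoids grown in Matrigel from primary mouse hepatocytes, after 2 weeks in MM against HepOrgs after 2 weeks in HM-Wnt. It takes 6 of the 27 bulk RNA-seq libraries mapped to a condition, 3 in each medium, chosen by their labels alone, and it covers the 12989 of 21848 genes with enough counts to test. Both groups were derived from hepatocytes of wild-type C57BL/6 mice, were at passage 2 and were collected after 14 days in the medium named. For tests of media, the study's methods describe expansion in HM-Wnt until passage 2 and then a move into the medium tested. The MM cultures thus came from HM-Wnt, and the comparison is of a change to MM against a stay in HM-Wnt. The study's methods give adult donors of both sexes. HM-Wnt, the expansion medium, is a basal medium with B27 and N-acetylcysteine to which gastrin, EGF, HGF, FGF7, FGF10, nicotinamide, RSPO1 conditioned medium, WNT3a conditioned medium, the GSK3 inhibitor CHIR99021, the TGF-beta receptor inhibitor A83-01 and the ROCK inhibitor Y-27632 are added. MM is the basal medium with only the WNT3a conditioned medium and Y-27632, so both groups carried these 2 additions. The other additions left together, and their separate parts cannot be told apart. The methods describe manual removal of other organoid types up to passage 2 and a choice of cultures rich in folded, grape-like structures. The labels do not say whether replicate numbers stand for donors, cultures or wells, so p-values measure the spread between these libraries only.

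Hepatocytes of the liver lobule differ in their work along the axis from portal vein to central vein. Wnt ligands from the central vein act through beta-catenin on genes such as Glul and Axin2, and EGF, HGF and FGF act through receptor tyrosine kinases and ERK to drive growth of hepatocytes. Nuclear receptors such as PPARA, FXR and PXR drive fatty acid oxidation, bile acid handling and drug metabolism in the same cells.

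Total counts on genes ran from 35069727 to 50165446 in MM and from 31477682 to 41197184 in HM-Wnt. The 12 hepatocyte markers checked were all detected in all 6 libraries, with a summed level of 36648 to 75504 normalised CPM (counts scaled to library size) in MM and 37612 to 52997 CPM in HM-Wnt. Of the markers of other cells, the 10 endothelial genes summed to 0.604 to 1.15 CPM in MM and 0.587 to 0.894 CPM in HM-Wnt, with Clec4g at 0 in all 6 libraries. The 13 portal mesenchyme genes summed to 29.8 to 198 CPM in MM and 20.7 to 76.8 CPM in HM-Wnt, with Dpt at 0 throughout. The 13 cholangiocyte genes other than Spp1 summed to 89.9 to 185 CPM in MM and 110.5 to 285 CPM in HM-Wnt, and with Spp1 to 12014, 11102 and 7886 CPM in MM against 6527, 4845 and 12910 CPM in HM-Wnt. Of these genes, Sctr was at 0 in the 3 MM libraries. The 10 immune genes summed to 7.91, 28.2 and 733 CPM in MM replicates 1 to 3 and to 19.9 to 50.5 CPM in HM-Wnt, with Clec4f at 0 throughout. MM replicate 3 thus stood apart, with the macrophage genes Lyz2 at 659 CPM and Adgre1 at 9.01 CPM against 10.4 CPM or less and 0 in the other MM libraries. It was also the lowest MM library for many of the hepatocyte genes below, and what part those other cells had in this was not tested. Of the tested markers, Asgr1, Hpx and Abcb11 of the 12 hepatocyte genes were higher in MM and Serpina1a, which has close paralogs, was lower, and 1 of 12 cholangiocyte genes, Pkhd1, was higher. Of these marker calls, Asgr1 did not pass without any 1 of MM replicates 1 and 2 and HM-Wnt replicate 1 (adjusted p 0.054 to 0.093). Serpina1a did not pass with any 1 of the 6 libraries left out (adjusted p 0.062 to 0.124). Pkhd1 did not pass without any 1 of MM replicates 1, 2 and 3 and HM-Wnt replicates 1 and 2 (adjusted p 0.058 to 0.106). Under the replicate block 4 hepatocyte genes were higher and 3 lower, and 1 cholangiocyte gene was higher and 1 lower. None of 11 mesenchyme, 2 endothelial and 5 immune genes passed in edgeR or DESeq2, with 1, 1 and 2 at an unadjusted p under 0.05 in edgeR and 1 mesenchyme gene higher under the replicate block. The 11 mesenchyme genes had a median log2 fold change of 2.01, with 10 above 0 (0.77 without MM replicate 3, 0.95 on log2(TPM + 1)), and a median of 2.09 at 1 week. What part those cells had in the results below was not tested. In bulk libraries, fewer cells of a type and less RNA per cell cannot be told apart.

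HepOrgs in MM differed from those in HM-Wnt in 1479 of 12989 tested genes (11.4%), of which 884 were higher (6.81%) and 595 lower (4.58%) in MM. A gene was called at an adjusted p under 0.05 in edgeR's quasi-likelihood test with Benjamini-Hochberg adjustment, and fold changes are given as log2(MM/HM-Wnt) ± SE with n = 3 per medium. The shares of all genes called are the background for the counts of list members below. In 4875 of the 12989 genes (37.5%) the MM and HM-Wnt libraries did not overlap, with MM higher in 18.7% and lower in 18.8%. Lack of overlap, given below for single genes, was thus more common than a call. Libraries of the same replicate number tended to deviate together. The exception was MM replicate 1, which was about as close to HM-Wnt replicate 2 as to HM-Wnt replicate 1. With the number as a block, 2551 genes were called (19.6%), 1431 higher (11%) and 1120 lower (8.62%). Among them were 1476 of the 1479. The count fell in most fits with 1 library left out, which also have fewer samples. It was 577 without MM replicate 1, 599 without MM replicate 2, 648 without HM-Wnt replicate 1 and 747 without HM-Wnt replicate 3, whereas it was 1594 without MM replicate 3, the library with macrophage genes. A fit that also took in the assembloids and freshly isolated hepatocytes, 27 libraries in all, called 7 genes. The split between directions depended on the scale and fit. With limma on log2(TPM + 1), 387 genes were higher and 862 lower, so that 31% of the calls were higher instead of 59.8%. The median fold change was -0.26 over the 9439 genes of that fit, against -0.02 over the 12989 genes in edgeR.

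**Figure D1:**
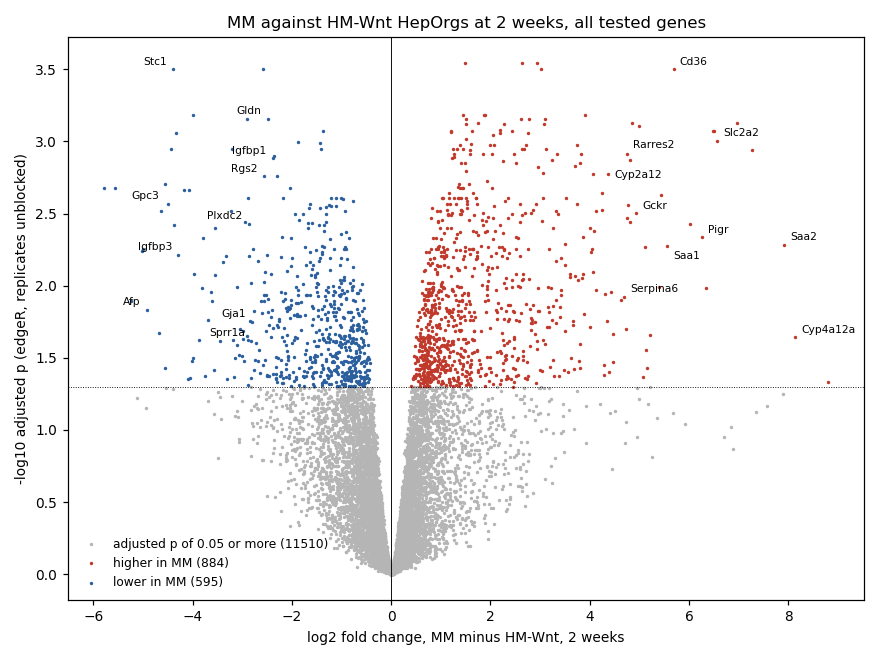
Each point is 1 of the 12989 tested genes, with its log2 fold change between MM and HM-Wnt at 2 weeks on the x axis and -log10 of its adjusted p on the y axis. Red marks the 884 genes higher and blue the 595 lower in MM, the dotted line is the threshold, and the 10 highest and 10 lowest genes by the naming rule are labelled.

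Genes were ranked by fold change among the calls whose media did not overlap and whose mean log2 CPM was 5 or more. The 10 with the highest fold change included importers of fatty acids and glucose, acute phase genes and cytochromes P450. Cd36, a fatty acid importer (chromosome 5, 17986432 to 18094067, GRCm39), was at 335, 317 and 219.7 CPM in MM replicates 1 to 3 and at 7.77, 3.22 and 5.77 CPM in HM-Wnt (5.69 ± 0.51, adjusted p = 0.00032). Slc2a2, the glucose transporter of hepatocytes (chromosome 3, 28752051 to 28785508), was at 199.6, 128 and 63 CPM in MM against 0.916, 1.41 and 1.65 CPM in HM-Wnt (6.57 ± 0.78, adjusted p = 0.00099). For both, the lowest MM library was replicate 3. It lay above every HM-Wnt library, as the rule of choice requires of all 10. Saa2, an acute phase apolipoprotein, was at 3265, 1699 and 742 CPM in MM against 10.9, 9.41 and 3.25 CPM in HM-Wnt (7.91 ± 1.35, adjusted p = 0.0052). Its near-identical neighbour Saa1 was at 4764, 2774 and 1165 CPM in MM against 96.6, 63.1 and 24.7 CPM (5.56 ± 0.95, adjusted p = 0.0053). How reads shared by the Saa genes were counted is not given in the sources used here, so the division between them is uncertain. Cyp4a12a, a fatty acid hydroxylase known for higher expression in male mouse liver, had the highest fold change of the 10 and an SE to match: 78.8, 241 and 2.76 CPM in MM against 0.282, 0.329 and 0.393 CPM in HM-Wnt (8.14 ± 1.95, adjusted p = 0.023). Its MM libraries differed among themselves far more than the HM-Wnt libraries did. The other genes of the 10 included Pigr, the receptor that carries IgA into bile (6.26 ± 1.05, adjusted p = 0.0046), and Gckr, a regulator of glucose metabolism (4.94 ± 0.77, adjusted p = 0.0031). They also included the adipokine gene Rarres2 (4.75 ± 0.60, adjusted p = 0.0012), Serpina6, which encodes the corticosteroid carrier of plasma (4.70 ± 0.97, adjusted p = 0.012), and Cyp2a12, a hydroxylase of bile acids and steroids (4.37 ± 0.59, adjusted p = 0.0017). Of these 10 calls, those of Saa2, Slc2a2, Pigr, Cd36, Saa1, Gckr, Rarres2, Serpina6 and Cyp2a12 held with any 1 library left out. Cyp4a12a did not pass without any 1 of MM replicates 1 and 2 and HM-Wnt replicates 1, 2 and 3 (adjusted p 0.051 to 0.089).

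The 10 with the lowest fold change by the same rule were headed by genes known from the fetal liver. Afp, the plasma carrier of the fetal liver (chromosome 5, 90638584 to 90656766), was at 31.6, 27.1 and 154 CPM in MM and at 1441, 415 and 4615 CPM in HM-Wnt (-4.93 ± 1.07, adjusted p = 0.015). Gpc3, a cell surface proteoglycan also known from fetal liver and liver cancer (chromosome X, 51361303 to 51703137), was at 24.5, 21.5 and 80.4 CPM in MM against 1148, 711 and 1109 CPM in HM-Wnt (-4.55 ± 0.63, adjusted p = 0.002). For both, MM replicate 3 was the highest MM library. It lay below every HM-Wnt library, as the rule of choice requires of all 10. The secreted factor Stc1 was at 2.17, 4.32 and 3.68 CPM in MM against 70.7, 60.0 and 87 CPM in HM-Wnt (-4.40 ± 0.38, adjusted p = 0.00032). The IGF binding protein Igfbp3 was at 20.9, 10.9 and 30.1 CPM in MM against 309, 221 and 685 CPM (-4.29 ± 0.77, adjusted p = 0.0061). Igfbp1, the insulin-repressed binding protein made by hepatocytes, was at 424, 364 and 443 CPM in MM against 1733, 2073 and 2624 CPM (-2.38 ± 0.31, adjusted p = 0.0013). The rest of the 10 were Plxdc2 (-2.87 ± 0.46, adjusted p = 0.0037), the cornified envelope gene Sprr1a (-2.82 ± 0.69, adjusted p = 0.024), the gap junction gene Gja1 (-2.81 ± 0.64, adjusted p = 0.018), Rgs2, a regulator of G protein signalling (-2.57 ± 0.35, adjusted p = 0.0017), and Gldn (-2.49 ± 0.26, adjusted p = 0.0007). Of these 10 calls, those of Gpc3, Stc1, Igfbp3, Plxdc2, Rgs2, Gldn and Igfbp1 held with any 1 library left out. Afp did not pass without any 1 of MM replicates 1 and 2 (adjusted p = 0.067). Sprr1a did not pass without any 1 of MM replicates 1 and 2 and HM-Wnt replicates 1 and 3 (adjusted p 0.058 to 0.101). Gja1 did not pass without MM replicate 1 (adjusted p = 0.068). Of the 12 tested genes in the list of progenitor and fetal liver genes, Afp and Gpc3 were lower and no member was higher, with 4 lower under the block.

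**Figure D2:**
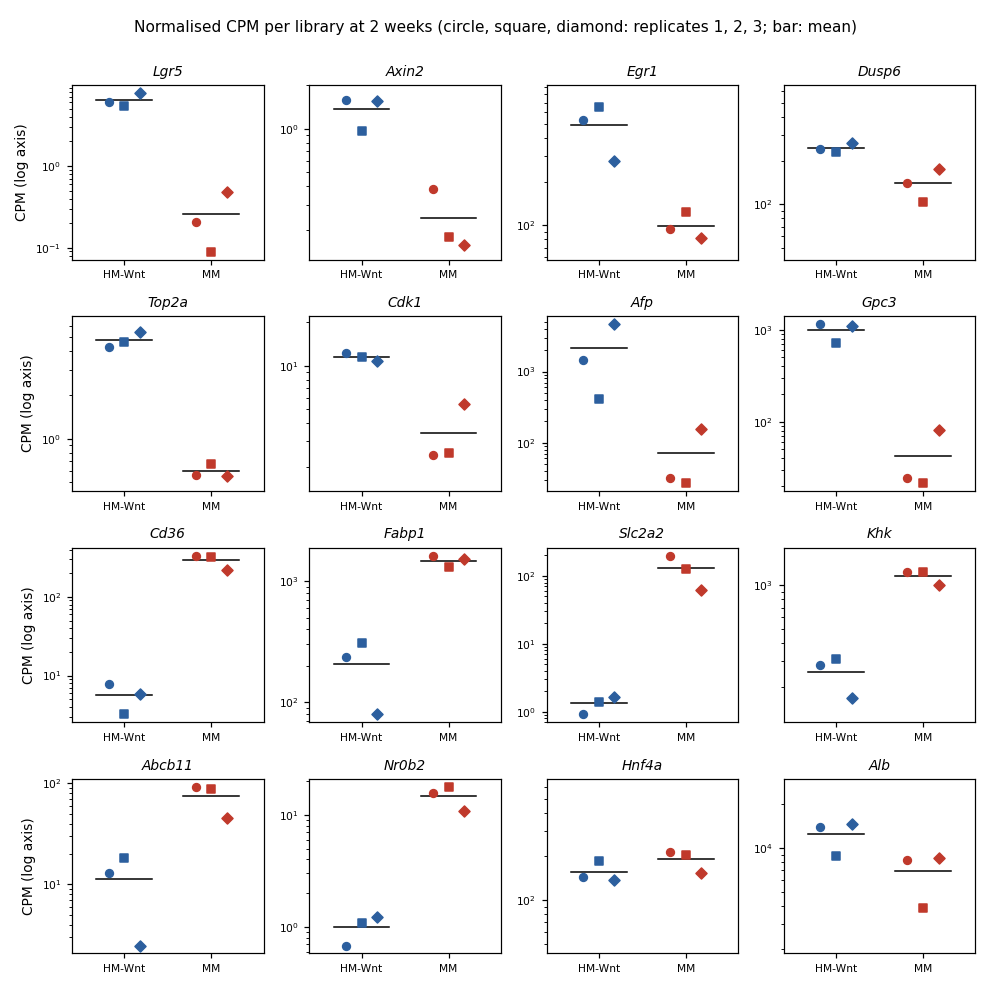
Normalised CPM on log axes for 16 genes, each in its own panel, with the HM-Wnt libraries in blue and the MM libraries in red. Circle, square and diamond are replicates 1, 2 and 3 and the bar is the mean of 3. The 2 media do not overlap for the panels from Lgr5 to Nr0b2 or for Alb, whereas the Hnf4a libraries of the 2 media overlap. Of all tested genes, 37.5% had no overlap.

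Wnt targets and feedback genes were lower in part. Both media held WNT3a, whereas RSPO1 conditioned medium and CHIR99021 were in HM-Wnt alone. Of the 17 tested members, 6 were lower and none higher, with a median log2 fold change of -0.95 against -0.02 over all genes. In DESeq2 8 were lower, with only the 6 libraries compared 4 were lower and 1 higher, and with at least 10 counts in every library 3 were lower and the median was -0.53. Lgr5, a receptor for R-spondins (chromosome 10, 115286216 to 115423685), was at 0.205, 0.0895 and 0.477 CPM in MM against 6.01, 5.46 and 7.82 CPM in HM-Wnt (-4.43 ± 0.55, adjusted p = 0.0011). Axin2, the feedback scaffold of the beta-catenin destruction complex, was at 0.384, 0.179 and 0.159 CPM in MM against 1.57, 0.964 and 1.55 CPM (-2.29 ± 0.52, adjusted p = 0.019). Sp5, a transcription factor induced by beta-catenin, was at 0.205, 0.0895 and 0.451 CPM in MM against 2.14, 1.34 and 1.78 CPM (-2.62 ± 0.55, adjusted p = 0.013). No MM library reached an HM-Wnt library for any of the 3, although Axin2 and Sp5 were low in every library. Of all tested genes, 18.8% were lower in MM without overlap. Of the extracellular and membrane brakes on the pathway, Notum, which strips the lipid from Wnt ligands, was at 7.75, 4.14 and 7.34 CPM in MM against 18.2, 9.38 and 19 CPM (-1.27 ± 0.32, adjusted p = 0.027). Rnf43, which removes Frizzled receptors, was at 9.85, 6.82 and 10.8 CPM in MM against 19.4, 15.3 and 26.3 CPM (-1.15 ± 0.25, adjusted p = 0.016). The effector Tcf7 was lower too (-1.60 ± 0.42, adjusted p = 0.034), whereas Tcf7l2, the main effector in hepatocytes, did not pass (0.53 ± 0.24, adjusted p = 0.180), nor did Myc (0.06 ± 0.30, adjusted p = 0.923). Tcf7l2 was the 1 higher gene with only the 6 libraries compared (adjusted p = 0.049). Znrf3 and Nkd1, which are feedback genes as well, did not pass. Of these Wnt calls, that of Lgr5 held with any 1 library left out. Axin2 did not pass without any 1 of MM replicate 2 and HM-Wnt replicates 1 and 3 (adjusted p 0.054 to 0.080). Sp5 did not pass without MM replicate 1 (adjusted p = 0.058). Notum and Tcf7 did not pass without any 1 of MM replicates 1 and 2 and HM-Wnt replicates 1 and 3 (adjusted p 0.056 to 0.128). Rnf43 did not pass without any 1 of MM replicates 1 and 2 and HM-Wnt replicate 3 (adjusted p 0.053 to 0.073). For lower Wnt genes, the count was 2 without MM replicates 1 and 2 and HM-Wnt replicate 3 and 3 without HM-Wnt replicate 1.

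The promoter of Sp5 is printed because it holds the sequence CTTTGAT, bound by TCF and LEF factors, beside a gene that was lower in MM. RefSeq promoters were found for 14 of the 20 listed Wnt genes. On either strand of the 250 bases before the start, 2 of the 14 (14.3%) held this sequence, against 3.72% of the 27025 genes whose RefSeq promoter was searched. A match is a description of the letters and not a site known to be bound. Capitals mark the match, in build GRCm38.p6.
Sp5, chr2:70474673-70474922 (plus strand): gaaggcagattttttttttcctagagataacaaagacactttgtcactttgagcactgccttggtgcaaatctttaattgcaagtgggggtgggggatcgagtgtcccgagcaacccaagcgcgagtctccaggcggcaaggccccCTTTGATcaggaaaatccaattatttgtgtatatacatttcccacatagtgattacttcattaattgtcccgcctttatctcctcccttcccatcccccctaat

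Feedback and target genes of ERK were lower in part in MM, which held no added EGF, HGF or FGF. Of the 20 members, all tested, 6 were lower and none higher (11 lower under the block), the median was -1.17, and 19 of the 20 fold changes were negative. Egr1, an immediate early transcription factor, was at 93.5, 123 and 81.6 CPM in MM against 528, 658 and 277 CPM in HM-Wnt (-2.29 ± 0.31, adjusted p = 0.0017). Among the phosphatases that act on ERK, Dusp6 was at 139, 104 and 175 CPM in MM against 242, 229 and 265 CPM (-0.82 ± 0.22, adjusted p = 0.034). Dusp5 was at 4.73, 5.01 and 7.31 CPM in MM against 24.3, 11.1 and 36.5 CPM (-2.07 ± 0.58, adjusted p = 0.041). The media did not overlap for any of the 3. The Sprouty family member Spry4, an inhibitor of receptor tyrosine kinase signalling, was at 3.91, 3.09 and 2.81 CPM in MM against 8.08, 8.09 and 7.03 CPM (-1.23 ± 0.23, adjusted p = 0.0078). Ier3 (-1.57 ± 0.29, adjusted p = 0.0071) and Phlda1 (-1.11 ± 0.16, adjusted p = 0.0025) were lower as well. Areg, an EGF receptor ligand, was at 6.83, 4.74 and 20.1 CPM in MM against 66.6, 88.1 and 49.1 CPM in HM-Wnt, with a large fold change that did not pass without the block (-2.68 ± 0.89, adjusted p = 0.072) and passed with it (adjusted p = 0.0062). Epha2 did not pass without the block and passed with it (adjusted p = 0.163 and 0.04996). Of these ERK calls, those of Egr1, Spry4, Ier3 and Phlda1 held with any 1 library left out. Dusp6 did not pass without any 1 of MM replicates 1 and 2 and HM-Wnt replicates 1, 2 and 3 (adjusted p 0.057 to 0.128). Dusp5 did not pass without any 1 of MM replicates 1, 2 and 3 and HM-Wnt replicates 1 and 3 (adjusted p 0.055 to 0.139).

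Of the receptors for growth factors left out of MM, Egfr, Met and Fgfr2 did not pass. Egfr was at 424, 362 and 240.2 CPM in MM against 335, 454 and 284 CPM in HM-Wnt (-0.06 ± 0.27, adjusted p = 0.906). Met, the HGF receptor, had a value of 0.31 ± 0.23, adjusted p = 0.419. Fgfr2, the receptor for FGF7 and FGF10, was at 174, 175 and 184 CPM in MM against 681, 157 and 521 CPM (-1.35 ± 0.48, adjusted p = 0.088). For Fgfr2, HM-Wnt replicate 2 lay below every MM library and the other HM-Wnt libraries above them. Receptors for endocrine FGFs were higher. Klb, the co-receptor for FGF15 and FGF21, was at 16.7, 28.2 and 8.67 CPM in MM against 2.07, 2.63 and 0.525 CPM (3.32 ± 0.61, adjusted p = 0.0067). Fgfr4, its partner in hepatocytes, was at 5.37, 4.83 and 2.17 CPM in MM against 1.17, 1.06 and 1.42 CPM (1.73 ± 0.44, adjusted p = 0.028). Fgfr3 (1.63 ± 0.42, adjusted p = 0.029) and Ghr, the growth hormone receptor (1.98 ± 0.53, adjusted p = 0.037), were higher too. In this list of 20, 5 members were higher, Fgf21 being the other one, and 3 were lower, namely Igfbp1, Tgfa and Errfi1, an inhibitor of EGFR (-1.12 ± 0.27, adjusted p = 0.024). Of the receptor calls, that of Klb held with any 1 library left out. Fgfr4 and Ghr did not pass without any 1 of MM replicates 1 and 2 and HM-Wnt replicates 1, 2 and 3 (adjusted p 0.069 to 0.123). Fgfr3 did not pass without any 1 of MM replicates 1 and 3 and HM-Wnt replicates 1 and 3 (adjusted p 0.074 to 0.104). Errfi1 did not pass without any 1 of MM replicates 2 and 3 and HM-Wnt replicates 1 and 2 (adjusted p 0.057 to 0.080). For higher members, the count was 1 without MM replicate 1 and HM-Wnt replicates 1 and 3, 2 without MM replicate 2 and 3 without MM replicate 3 and HM-Wnt replicate 2. For lower members, the count was 1 without MM replicates 2 and 3 and HM-Wnt replicate 1.

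Other signalling lists held 1 to 3 calls among 10 to 18 tested genes each, beside 11.4% called over all genes. HM-Wnt contained a TGF-beta receptor inhibitor and MM did not. Of 18 tested TGF-beta targets 1 was higher and 2 lower (5 lower under the block). The lower ones included the matrix gene Thbs1, at 4.12, 3.22 and 8.61 CPM in MM against 16.6, 10.0 and 76.5 CPM in HM-Wnt (-2.68 ± 0.71, adjusted p = 0.033). The collagen gene Col4a1 was the higher one (1.81 ± 0.42, adjusted p = 0.021). Id1 and Id2, which are targets of BMP and TGF-beta signalling, did not pass without the block and passed with it (-1.44 with adjusted p = 0.151 and 0.012, and -0.68 with 0.178 and 0.044). Of 14 tested BMP and iron response genes, the 2 that passed were the metallothioneins Mt1, at 169, 208 and 176 CPM in MM against 652, 556 and 378 CPM (-1.52 ± 0.27, adjusted p = 0.0057), and Mt2, at 40.4, 54.4 and 32.9 CPM in MM against 172, 136 and 98 CPM (-1.67 ± 0.25, adjusted p = 0.0029), both lower. These bind zinc and copper, and the BMP target Hamp, the iron hormone of the liver, did not pass. Of 15 YAP targets 1 was lower (2 under the block), Ccn1 (-1.25 ± 0.30, adjusted p = 0.022), and of 10 Notch genes 1 was lower, the feedback gene Nrarp (-3.16 ± 0.89, adjusted p = 0.043). Of these signalling calls, those of Mt1 and Mt2 held with any 1 library left out. Thbs1 did not pass without any 1 of MM replicates 1 and 2 and HM-Wnt replicate 3 (adjusted p 0.120 to 0.141). Col4a1 did not pass without any 1 of MM replicate 1 and HM-Wnt replicates 2 and 3 (adjusted p 0.053 to 0.084). Ccn1 did not pass without any 1 of MM replicates 1 and 2 and HM-Wnt replicates 1 and 3 (adjusted p 0.051 to 0.091). Nrarp did not pass without any 1 of MM replicates 1, 2 and 3 and HM-Wnt replicates 1 and 3 (adjusted p 0.052 to 0.174).

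Genes of the cell cycle were lower in part in MM. All 22 genes of the G2 and mitosis list had negative fold changes, with a median of -1.47, and 8 passed. Top2a, the topoisomerase that separates chromosomes, was at 0.563, 0.671 and 0.557 CPM in MM against 4.3, 4.63 and 5.48 CPM in HM-Wnt (-2.91 ± 0.31, adjusted p = 0.0007). Cdk1, the kinase that starts mitosis, was at 2.43, 2.48 and 5.41 CPM in MM against 12.3, 11.4 and 10.8 CPM (-1.73 ± 0.30, adjusted p = 0.0054). The ubiquitin enzyme Ube2c of the anaphase complex was at 0.768, 0.380 and 0.822 CPM in MM against 2.49, 2.82 and 3.72 CPM (-2.12 ± 0.53, adjusted p = 0.026). No MM library reached an HM-Wnt library for these 3. The spindle genes Plk1 (-2.01 ± 0.49, adjusted p = 0.025) and Tpx2 (-2.09 ± 0.53, adjusted p = 0.028) were lower, and Cenpe, Bub1b and Aurka were the other calls. Ccnb1, the cyclin partner of Cdk1, was at 0.947, 0.291 and 0.530 CPM in MM against 2.94, 3.53 and 3.15 CPM and did not pass (-2.36 ± 0.92, adjusted p = 0.117), nor did Cdc20 (-0.86 ± 0.27, adjusted p = 0.064), Mki67, Ccna2 or Birc5. Of 20 S phase genes, 5 were lower (8 under the block) and the median was -0.56. Cdc6 and Cdt1, which load the replicative helicase, were at 0.281, 0.403 and 0.371 CPM in MM against 1.48, 1.83 and 1.84 CPM (-2.14 ± 0.44, adjusted p = 0.011) and at 1.69, 1.66 and 2.99 CPM in MM against 5.07, 4.04 and 6.43 CPM (-1.28 ± 0.31, adjusted p = 0.023). Rrm2, a subunit of ribonucleotide reductase (-1.23 ± 0.22, adjusted p = 0.0064), Mcm6, part of the helicase (-0.99 ± 0.20, adjusted p = 0.011), and Chaf1b, a histone chaperone (-1.38 ± 0.38, adjusted p = 0.037), were the others. Pcna did not pass without the block and passed with it (adjusted p = 0.108 and 0.041). No gene among 17 cell cycle inhibitors and p53 targets passed in edgeR, Cdkn1a included, with 2 at an unadjusted p under 0.05, against 2 lower under the block and 2 lower in DESeq2. Of these cell cycle calls, those of Top2a, Cdk1, Rrm2 and Mcm6 held with any 1 library left out. Ube2c, Cdt1 and Chaf1b did not pass without any 1 of MM replicates 1 and 2 and HM-Wnt replicates 1 and 3 (adjusted p 0.055 to 0.124). Plk1 did not pass without any 1 of MM replicates 2 and 3 and HM-Wnt replicates 1 and 3 (adjusted p 0.060 to 0.101). Tpx2 did not pass without any 1 of MM replicate 3 and HM-Wnt replicates 1, 2 and 3 (adjusted p 0.051 to 0.080). Cdc6 did not pass without MM replicate 1 (adjusted p = 0.053). For the G2 and mitosis list, the count was 3 without HM-Wnt replicates 1 and 3, 4 without MM replicate 2 and 5 without MM replicate 3 and HM-Wnt replicate 2. For the S phase list, the count was 2 without MM replicate 1 and 3 without MM replicate 2 and HM-Wnt replicates 1 and 3.

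Promoters of Top2a, Cdk1 and Ube2c are shown because mitotic genes that move together are known to share CCAAT boxes and the cell cycle homology region TTTGAA. RefSeq promoters were found for 18 of the 22 G2 and mitosis genes and 16 of the 20 S phase genes. CCAAT, searched on both strands, was in 83.3% of the former and 75% of the latter, against 37.5% of all 27025 genes. TTTGAA was in 44.4% of the former and 12.5% of the latter, against 18.3% of all genes. The 250 bases before each start are given 5′ to 3′ in the direction of the gene (RefSeq, GRCm38.p6), with both motifs in capitals. CCAAT on the other strand reads ATTGG, and TTTGAA reads TTCAAA.
Top2a, chr11:99024190-99024439 (minus strand): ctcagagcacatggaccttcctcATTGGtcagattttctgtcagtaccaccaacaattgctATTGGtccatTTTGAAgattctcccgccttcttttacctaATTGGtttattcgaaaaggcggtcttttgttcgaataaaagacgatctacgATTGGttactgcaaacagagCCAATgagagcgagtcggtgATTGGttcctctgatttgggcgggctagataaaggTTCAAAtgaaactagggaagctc
Cdk1, chr10:69352913-69353162 (minus strand): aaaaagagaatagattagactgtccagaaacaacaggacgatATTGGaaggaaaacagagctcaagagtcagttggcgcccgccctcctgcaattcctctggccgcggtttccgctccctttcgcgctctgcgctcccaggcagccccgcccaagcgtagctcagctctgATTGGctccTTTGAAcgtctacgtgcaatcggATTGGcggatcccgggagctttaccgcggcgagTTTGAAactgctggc
Ube2c, chr2:164769679-164769928 (plus strand): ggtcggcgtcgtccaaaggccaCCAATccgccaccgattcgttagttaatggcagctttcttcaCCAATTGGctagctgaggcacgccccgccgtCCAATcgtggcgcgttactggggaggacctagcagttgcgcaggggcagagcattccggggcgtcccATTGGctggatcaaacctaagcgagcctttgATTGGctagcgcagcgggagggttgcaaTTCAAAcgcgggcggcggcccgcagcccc

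Counted over both strands, the Top2a promoter held 6 CCAAT boxes and 2 TTTGAA elements, that of Cdk1 held 3 and 2, and that of Ube2c held 6 and 1.

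Of 24 hepatocyte transcription factors 6 were higher and none lower, beside 6.81% higher and 4.58% lower over all genes. Under the block 8 were higher and 1 lower, beside 11% and 8.62%. Hnf4a, the master regulator of the hepatocyte programme, was at 213, 205 and 153 CPM in MM against 145, 185 and 137 CPM in HM-Wnt and did not pass (0.29 ± 0.21, adjusted p = 0.397), and Foxa3 did not pass either (-0.67 ± 0.32, adjusted p = 0.189). The calls included nuclear receptors of bile acid and drug metabolism. Nr0b2, which encodes SHP, a repressor induced by bile acids through FXR, was at 15.7, 17.8 and 10.8 CPM in MM against 0.681, 1.08 and 1.23 CPM (3.83 ± 0.48, adjusted p = 0.0012). Nr1h4, which encodes FXR itself, was at 162, 155 and 94.2 CPM in MM against 30.6, 40.8 and 13.6 CPM (2.27 ± 0.44, adjusted p = 0.0096). Nr1i2, which encodes PXR, was at 23.8, 21.9 and 14.8 CPM in MM against 7.66, 8.84 and 7.92 CPM (1.31 ± 0.22, adjusted p = 0.0047). The media did not overlap for any of the 3. Creb3l3 (1.44 ± 0.20, adjusted p = 0.0021), a liver factor of fasting and lipid metabolism, Nr5a2 (0.79 ± 0.22, adjusted p = 0.043) and Cebpa (0.69 ± 0.19, adjusted p = 0.035) were the other calls. The list's median was 0.17 with TMM and -0.15 on log2(TPM + 1). Of these factor calls, those of Nr0b2, Nr1h4, Nr1i2 and Creb3l3 held with any 1 library left out. Nr5a2 did not pass with any 1 of the 6 libraries left out (adjusted p 0.057 to 0.143). Cebpa did not pass without any 1 of MM replicates 1 and 2 and HM-Wnt replicates 1, 2 and 3 (adjusted p 0.069 to 0.152).

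Secreted plasma proteins did not move as 1 group. Alb was at 8279.9, 3853 and 8552 CPM in MM against 13964, 8763 and 14578 CPM in HM-Wnt, with every MM library below every HM-Wnt library, and passed as lower only with the block (-0.85 ± 0.35, adjusted p = 0.140, 0.021 blocked). Hpx, the heme carrier, was at 37100, 27893 and 12141 CPM in MM against 6272, 5357 and 2241 CPM (2.48 ± 0.60, adjusted p = 0.023), with its highest HM-Wnt library below its lowest MM library. Trf, the iron carrier, did not pass (-0.53 ± 0.30, adjusted p = 0.277), whereas Cp, the copper oxidase (1.54 ± 0.45, adjusted p = 0.048), and Serpina7, a thyroxine carrier (1.46 ± 0.32, adjusted p = 0.016), were higher. In all, 4 of 16 carriers were higher and Afp alone lower, or 9 and 3 under the block. Of 29 tested coagulation and complement factors 4 were higher and none lower, beside 6.81% higher over all genes, and 13 were higher under the block, beside 11%. Antithrombin (Serpinc1) was at 1725, 2071 and 944 CPM in MM against 187, 356 and 63.7 CPM (2.97 ± 0.64, adjusted p = 0.015). The others were C8g (1.52 ± 0.42, adjusted p = 0.039), Masp1 (1.26 ± 0.28, adjusted p = 0.017) and F9 (0.94 ± 0.25, adjusted p = 0.036), and the fibrinogen chain Fgb did not pass (0.46 ± 0.46, adjusted p = 0.566). Of 18 acute phase genes 5 were higher (12 under the block): Saa1 and Saa2, Saa3 at 99.7, 54.1 and 132 CPM in MM against 29.7, 14.3 and 7.4 CPM (2.47 ± 0.71, adjusted p = 0.046), Saa4 (2.23 ± 0.53, adjusted p = 0.021) and Lbp (0.80 ± 0.20, adjusted p = 0.027). Haptoglobin (Hp) was at 40391, 36891 and 19372 CPM in MM against 16134, 14626 and 6839 CPM in HM-Wnt and did not pass without the block and passed with it (adjusted p = 0.073 and 0.0035), as did Itih4 (0.166 and 0.037). Among 16 tested apolipoproteins and lipoprotein genes 6 were higher and 1 lower. Apoa5, a regulator of plasma triglycerides, was at 288, 516 and 209 CPM in MM against 21, 15.7 and 51.3 CPM (3.52 ± 0.51, adjusted p = 0.0025). Apoa2 (2.65 ± 0.70, adjusted p = 0.033), Apoa4 (1.37 ± 0.19, adjusted p = 0.002), Apoc3 (1.04 ± 0.30, adjusted p = 0.048), the lipase Lipc (1.43 ± 0.30, adjusted p = 0.013) and Apob were higher too. Apoe (0.51 ± 0.37, adjusted p = 0.407) and Apoa1 (-1.04 ± 0.62, adjusted p = 0.306) did not pass.

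Many of these secreted protein calls did not pass once 1 library was left out, in fits that also have fewer samples. Among them, those of Apoa5 and Apoa4 held with any 1 library left out. Hpx, Cp, Lbp and Apoa2 did not pass without any 1 of MM replicates 1 and 2 and HM-Wnt replicates 1, 2 and 3 (adjusted p 0.054 to 0.163). Serpina7 did not pass without any 1 of MM replicates 1 and 2 and HM-Wnt replicate 3 (adjusted p 0.057 to 0.071). Serpinc1 and Lipc did not pass without any 1 of MM replicate 2 and HM-Wnt replicate 1 (adjusted p 0.051 to 0.063). C8g, Masp1, F9 and Saa4 did not pass without any 1 of MM replicates 1 and 2 and HM-Wnt replicates 1 and 3 (adjusted p 0.055 to 0.136). Saa3 and Apoc3 did not pass with any 1 of the 6 libraries left out (adjusted p 0.0501 to 0.151). For higher carriers, the count was 1 without MM replicates 1 and 2 and HM-Wnt replicate 3, 2 without HM-Wnt replicate 1 and 7 without MM replicate 3. For higher coagulation and complement factors, the count was 0 without MM replicate 2 and HM-Wnt replicate 1 and 1 without MM replicate 1 and HM-Wnt replicate 3. For higher acute phase genes, the count was 2 without MM replicates 1 and 2 and HM-Wnt replicates 1 and 3 and 3 without HM-Wnt replicate 2. For higher lipoprotein genes, the count was 2 without MM replicate 2 and HM-Wnt replicate 1 and 3 without MM replicate 1 and HM-Wnt replicates 2 and 3.

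Bile transport and bile acid synthesis rose in part. Beside the list counts of this paragraph, 6.81% of all genes were higher and 4.58% lower (11% and 8.62% under the block). Abcb11, the canalicular pump for bile salts (chromosome 2, 69068544 to 69173315), was at 92.2, 88 and 45 CPM in MM against 12.9, 18.4 and 2.49 CPM in HM-Wnt (2.73 ± 0.72, adjusted p = 0.034). Slc10a1, the sodium-dependent importer of bile salts from blood, was at 157, 142 and 80.0 CPM in MM against 11.5, 32.7 and 5.27 CPM (2.93 ± 0.71, adjusted p = 0.024). Both were lowest in HM-Wnt replicate 3, and neither overlapped between the media. Abcc2, which exports conjugated bilirubin, did not pass (-0.01 ± 0.18, adjusted p = 0.971), with 179, 157 and 232 CPM in MM against 181, 209 and 185 CPM in HM-Wnt. Abcb4, the phospholipid exporter, was at 355, 274 and 285 CPM in MM against 209.9, 193 and 175 CPM. It did not pass (0.66 ± 0.20, adjusted p = 0.053), and passed with the block (adjusted p = 0.0066), in DESeq2 (0.012) and with only the 6 libraries compared (0.027). Abcg2 (2.23 ± 0.40, adjusted p = 0.0062) and the basolateral exporter Abcc3 (0.96 ± 0.24, adjusted p = 0.028) were higher, so that with Slc22a7 5 of 19 tested transporters were higher (8 under the block). The drug exporter Abcb1b was the 1 lower (-1.93 ± 0.41, adjusted p = 0.013), and the importer Slco1b2 did not pass (0.53 ± 0.30, adjusted p = 0.274). Of 14 tested bile acid synthesis genes 6 were higher and none lower (10 and 1 under the block). Cyp8b1, which sets the share of cholic acid, was at 7.5, 2.82 and 4.58 CPM in MM against 0.517, 0.0941 and 0.184 CPM (4.0 ± 0.65, adjusted p = 0.004). Cyp7b1 of the alternative pathway was at 56.2, 48.8 and 11.3 CPM in MM against 5.1, 5.71 and 1.42 CPM (3.23 ± 0.73, adjusted p = 0.017). The enzymes of side chain shortening and conjugation were Scp2 (2.56 ± 0.43, adjusted p = 0.0047), Hsd17b4 (1.39 ± 0.23, adjusted p = 0.0043), Amacr (1.23 ± 0.25, adjusted p = 0.011) and Baat, which joins bile acids to taurine (2.77 ± 0.53, adjusted p = 0.0089). Slc27a5, which activates bile acids with coenzyme A, did not pass without the block and passed with it (adjusted p = 0.087 and 0.0018). Of 26 genes of the canaliculus, of polarity and of cell junctions 1 was higher, the canalicular peptidase Anpep (1.32 ± 0.34, adjusted p = 0.029), and none lower, against 4 and 2 under the block. Cdh1 was at 138, 153 and 174 CPM in MM against 221, 201 and 275 CPM in HM-Wnt and passed as lower with the block only (adjusted p = 0.134 and 0.040), and the gap junction gene Gjb1 did not pass (0.49 ± 0.23, adjusted p = 0.181). Of these bile and junction calls, those of Abcg2, Cyp8b1, Scp2, Hsd17b4, Amacr and Baat held with any 1 library left out. Abcb11, Slc10a1 and Cyp7b1 did not pass without any 1 of MM replicates 1 and 2 and HM-Wnt replicates 1 and 3 (adjusted p 0.057 to 0.098). Abcc3 did not pass without any 1 of MM replicates 1 and 2 and HM-Wnt replicates 1 and 2 (adjusted p 0.083 to 0.117). Abcb1b did not pass without MM replicate 2 (adjusted p = 0.063). Anpep did not pass without any 1 of MM replicates 1 and 2 and HM-Wnt replicates 1, 2 and 3 (adjusted p 0.060 to 0.106). For higher transporters, the count was 1 without MM replicates 1 and 2 and HM-Wnt replicate 1 and 2 without HM-Wnt replicate 3.

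Periportal genes rose in part, and pericentral genes moved in both directions. Over all genes, 6.81% were higher and 4.58% lower, against 11% and 8.62% under the block. Of 18 tested periportal genes 8 were higher and none lower, with a median of 1.56, and under the block 12 were higher and 2 lower. Arg1, the last enzyme of the urea cycle, was at 189.7, 144 and 20.1 CPM in MM against 5.38, 5.71 and 0.236 CPM in HM-Wnt. It did not pass (4.94 ± 1.47, adjusted p = 0.051), and passed with the block (adjusted p = 0.00034), in DESeq2 (0.0032), with only the 6 libraries compared (0.042) and without MM replicate 3 (0.038). Hsd17b13, a lipid droplet enzyme, was at 442, 279 and 123 CPM in MM against 36.3, 20.3 and 38.2 CPM (3.15 ± 0.67, adjusted p = 0.014). Pck1, which opens gluconeogenesis, was at 3.43, 5.97 and 2.65 CPM in MM against 0.258, 0.376 and 0.184 CPM (3.66 ± 0.84, adjusted p = 0.019). Gls2, the periportal glutaminase, did not pass, at 0.742, 0.895 and 0.530 CPM in MM against 1.67, 1.2 and 2.31 CPM (-1.20 ± 0.44, adjusted p = 0.099), and Rida did not pass without the block and passed with it (adjusted p = 0.0504 and 0.0043). Of 18 tested pericentral genes 2 were higher and 4 lower. Beside Lgr5 and Axin2, the lower genes were the glutamate transporter Slc1a2, at 0.205, 0.134 and 0.398 CPM in MM against 8.67, 5.78 and 3.07 CPM (-4.34 ± 0.50, adjusted p = 0.00087), and Ahr. The latter, the receptor for dioxins, was at 96.1, 114 and 102 CPM in MM against 319.6, 210.3 and 313 CPM (-1.43 ± 0.17, adjusted p = 0.001). Glul, glutamine synthetase and a beta-catenin target of the last cell rows around the central vein, went the other way from Axin2. It was at 142, 135 and 201 CPM in MM against 108, 51.7 and 52 CPM in HM-Wnt (1.18 ± 0.34, adjusted p = 0.047), with HM-Wnt replicate 1 nearest to MM. Aldh3a2 was higher as well (1.07 ± 0.19, adjusted p = 0.0057). The pericentral enzymes Cyp2e1, at 397, 45.7 and 104 CPM in MM against 176, 111 and 55.1 CPM (0.68 ± 0.82, adjusted p = 0.641), and Cyp1a1 (-0.40 ± 0.70, adjusted p = 0.760) did not pass, and the libraries of the media overlapped. Of these zonation calls, those of Slc1a2, Ahr and Aldh3a2 held with any 1 library left out. Hsd17b13 did not pass without any 1 of MM replicate 1 and HM-Wnt replicate 1 (adjusted p 0.051 to 0.053). Pck1 did not pass without any 1 of MM replicate 2 and HM-Wnt replicates 1 and 3 (adjusted p 0.070 to 0.075). Glul did not pass without any 1 of MM replicates 1, 2 and 3 and HM-Wnt replicates 2 and 3 (adjusted p 0.097 to 0.152). For higher periportal genes, the count was 4 without HM-Wnt replicate 1 and 5 without MM replicates 1 and 2 and HM-Wnt replicate 3.

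**Figure D3:**
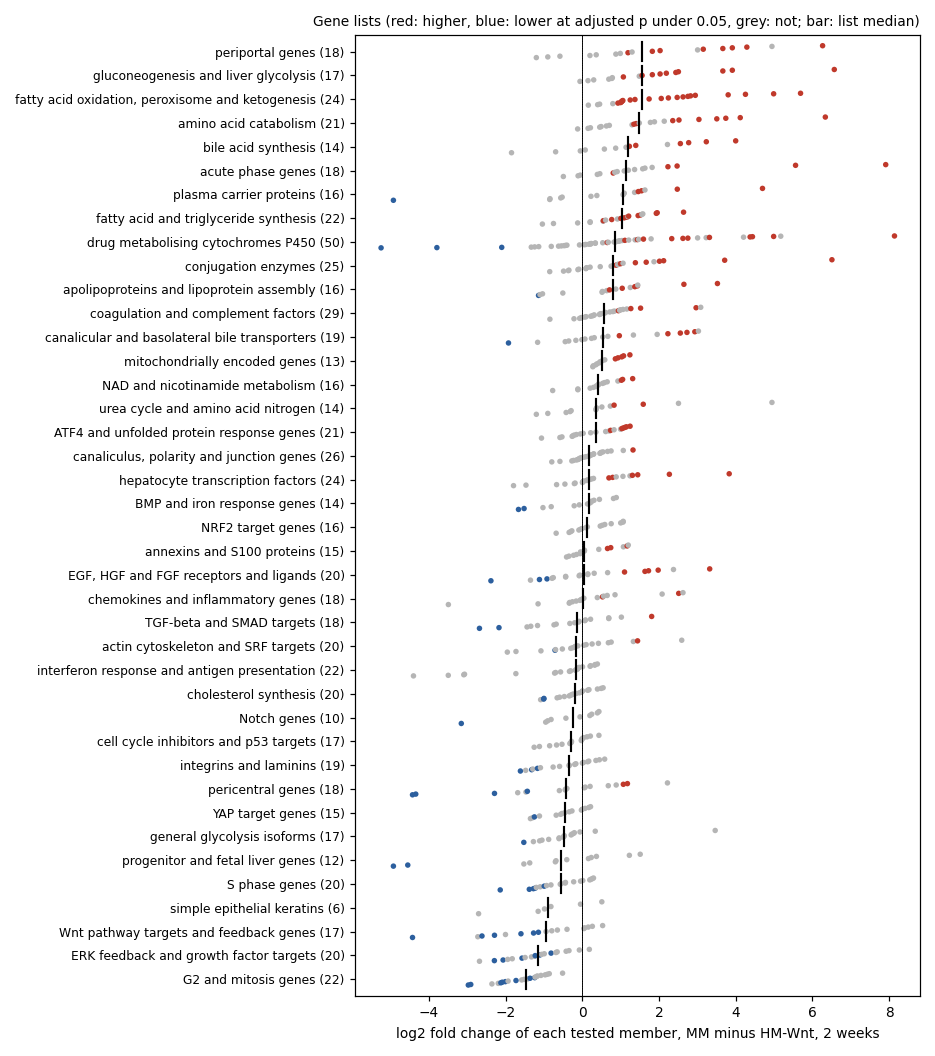
Each row is a gene list, with the number of tested members in brackets and each member's log2 fold change between MM and HM-Wnt at 2 weeks as a point. Red and blue mark members called higher and lower, grey the others, and the black bar is the list's median, from -1.47 for G2 and mitosis genes to 1.56 for periportal genes.

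Enzymes of glucose and fructose metabolism particular to liver were higher in part. Of the 17 genes of gluconeogenesis and liver glycolysis 10 were higher and none lower, with a median of 1.56. Khk, which phosphorylates fructose (chromosome 5, 31078775 to 31101479), was at 1228, 1243 and 999.5 CPM in MM against 282, 312 and 166 CPM in HM-Wnt (2.19 ± 0.25, adjusted p = 0.00087). Fbp1, of gluconeogenesis, was at 1514, 1634 and 1126 CPM in MM against 399, 437 and 212 CPM (2.03 ± 0.28, adjusted p = 0.0021). The media did not overlap for either. Gys2, the liver glycogen synthase, was at 99.3, 69.2 and 59.6 CPM in MM against 16.4, 16.1 and 9.5 CPM (2.44 ± 0.38, adjusted p = 0.0032). Slc2a2 and Pck1, given above, and G6pc, Pklr and Gcgr were among the other calls. The glycogen phosphorylase Pygl did not pass without the block and passed with it (adjusted p = 0.05002 and 0.018). Of 17 general glycolysis isoforms none was higher and 1 lower, near the 4.58% lower over all genes. Under the block 4 were lower, beside 8.62%. The 1 lower gene was Slc2a1, the glucose transporter of growing cells, at 35.3, 59.8 and 69.1 CPM in MM against 211, 138 and 125 CPM (-1.53 ± 0.40, adjusted p = 0.033). Ldha did not pass (-0.21 ± 0.20, adjusted p = 0.534). Of these glucose and fructose calls, those of Khk, Fbp1 and Gys2 held with any 1 library left out. Slc2a1 did not pass without any 1 of MM replicates 1 and 2 and HM-Wnt replicates 1, 2 and 3 (adjusted p 0.052 to 0.123). For the liver list, the count ran from 8 to 10 with 1 library left out.

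Of the lists examined, fatty acid oxidation had the highest share of calls. Of 24 tested genes 20 were higher and none lower, against 6.81% higher over all genes. The median was 1.56, and 0.79 on log2(TPM + 1). Most members are known targets of PPARA, whose own gene did not pass without the block and passed with it. In the endoplasmic reticulum, the omega-hydroxylase Cyp4a10 was at 19, 19.7 and 49.5 CPM in MM against 0.939, 0.705 and 0.997 CPM in HM-Wnt (4.99 ± 0.55, adjusted p = 0.00077), and MM replicate 3 was its highest library. In the peroxisome, the thiolase Acaa1b was at 964, 581 and 593 CPM in MM against 61.1, 55.8 and 36.3 CPM (3.80 ± 0.50, adjusted p = 0.0014). In mitochondria, the thioesterase Acot2 was at 10.7, 10.5 and 11.3 CPM in MM against 1.24, 1.27 and 1.57 CPM (2.95 ± 0.23, adjusted p = 0.00028). In the cytosol, the fatty acid carrier Fabp1 was at 1622, 1293 and 1506 CPM in MM against 238, 308 and 79.7 CPM (2.82 ± 0.66, adjusted p = 0.020). None of the 4 overlapped between the media, and HM-Wnt replicate 3 was the lowest for Fabp1. Cpt1a and Cpt2 of mitochondrial import, Hadha and Hadhb of the mitochondrial trifunctional protein and Ehhadh of the peroxisome were among the other genes that were higher. The long-chain enzymes Acadvl and Acaa2 did not pass without the block and passed with it (adjusted p = 0.315 and 0.049, and 0.243 and 0.035). The Acot and Cyp4a genes stand in clusters of close paralogs, and how shared reads were divided among them is uncertain. Of these oxidation calls, those of Cyp4a10, Acaa1b and Acot2 held with any 1 library left out. Fabp1 did not pass without any 1 of MM replicates 1 and 2 and HM-Wnt replicates 1 and 3 (adjusted p 0.051 to 0.067). For higher oxidation genes, the count ran from 14 to 19 with 1 library left out.

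The Fabp1 promoter is shown because it holds a direct repeat of AGGNCA with 1 base between its parts (AGGNCANAGGNCA), the form read by PPAR and HNF4 receptors. Of the 18 list members with a RefSeq promoter, it was the 1 that held this sequence on either strand of the 250 bases before the start, against 0.4% of all 27025 genes, so the promoters of the other members searched do not carry these letters in this window. Capitals mark the repeat (RefSeq, GRCm38.p6).
Fabp1, chr6:71199629-71199878 (plus strand): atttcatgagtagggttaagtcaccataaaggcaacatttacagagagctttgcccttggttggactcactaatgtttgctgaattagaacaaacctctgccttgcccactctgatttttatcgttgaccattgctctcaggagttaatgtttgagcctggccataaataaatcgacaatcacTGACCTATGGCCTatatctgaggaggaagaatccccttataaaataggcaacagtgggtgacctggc

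Genes that make fatty acids and triglycerides were higher in part. Of 22, 11 were higher and none lower, with 15 and 2 under the block. Scd1, the desaturase that makes oleate, was at 20962, 23671 and 21701 CPM in MM against 6084, 6892 and 4465 CPM in HM-Wnt (1.93 ± 0.36, adjusted p = 0.0078). Fasn, fatty acid synthase, was at 937, 663 and 1018 CPM in MM against 308, 329 and 318 CPM (1.45 ± 0.26, adjusted p = 0.0066). Acacb, the carboxylase whose product restrains Cpt1a, was at 38.7, 36.6 and 22.4 CPM in MM against 5.54, 6.89 and 3.12 CPM (2.64 ± 0.41, adjusted p = 0.0032). All MM libraries lay above all HM-Wnt libraries for these 3. Mlxipl, which encodes the sugar sensor ChREBP (1.21 ± 0.14, adjusted p = 0.00084), its target Thrsp (1.95 ± 0.38, adjusted p = 0.0093) and the lipid droplet coat gene Plin2 (1.52 ± 0.18, adjusted p = 0.00095) were higher, and Acaca, Acly, Me1, Elovl6 and Dgat1 were the others. Gpam, which starts triglyceride synthesis, did not pass without the block and passed with it (adjusted p = 0.056 and 0.0055), and Srebf1 did not pass. Of the cholesterol synthesis list, none of 20 genes was higher and 2 were lower (1 and 5 under the block), among them Sqle, the squalene epoxidase, at 402, 563 and 373 CPM in MM against 1029.8, 1083 and 578 CPM (-1.01 ± 0.25, adjusted p = 0.027). Of these lipid synthesis calls, those of Scd1, Fasn, Acacb, Mlxipl, Thrsp and Plin2 held with any 1 library left out. Sqle did not pass without any 1 of MM replicates 1 and 3 and HM-Wnt replicates 1 and 2 (adjusted p 0.067 to 0.10). For fatty acid and triglyceride synthesis, the count ran from 8 to 11 with 1 library left out.

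**Figure D4:**
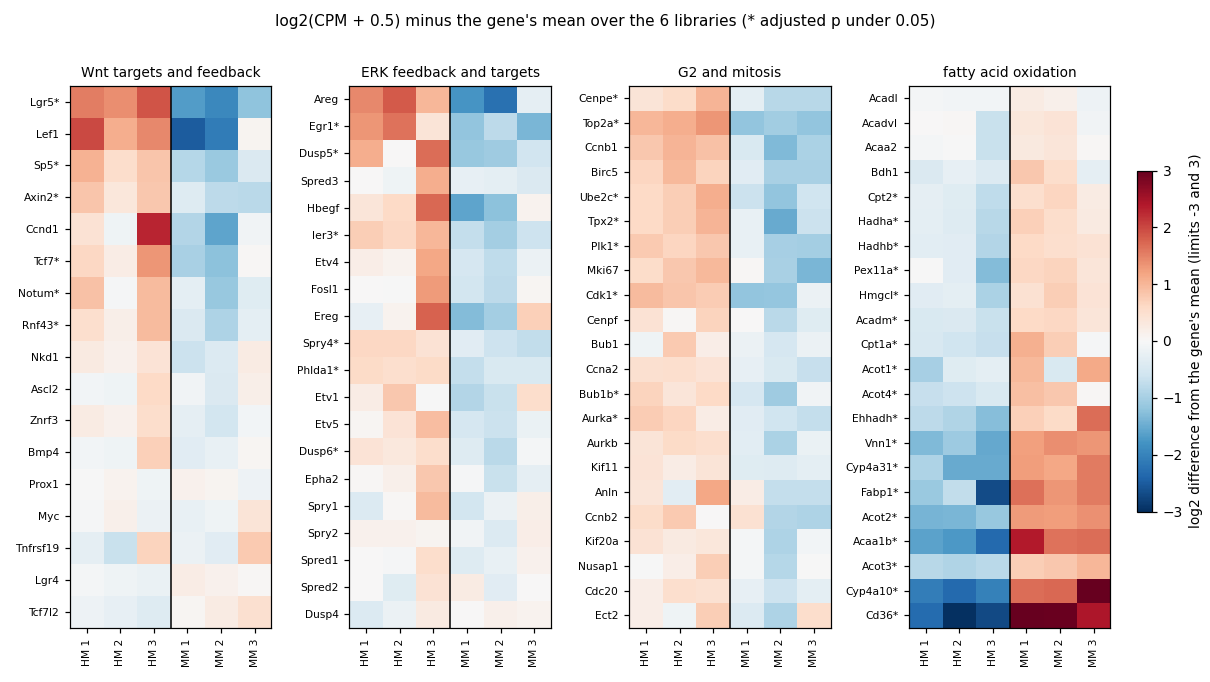
Columns are the 3 HM-Wnt (HM) and 3 MM libraries at 2 weeks and rows are tested members of 4 lists, coloured by log2(CPM + 0.5) minus the gene's mean over the 6 libraries, with an asterisk at called genes. Most of the fatty acid oxidation rows are red in MM and blue in HM-Wnt, and the called rows of the other 3 lists show the opposite.

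Drug metabolising enzymes moved in both directions. The shares over all genes were 6.81% higher and 4.58% lower, and 11% and 8.62% under the block. Of 50 tested cytochromes P450, 12 were higher and 3 lower (23 and 3 under the block). Those that were higher included Cyp2b9 and Cyp2c39 and fatty acid hydroxylases of the Cyp4a family. Cyp2c37, a lipid epoxygenase, was lower, at 0.0768, 0 and 0.981 CPM in MM against 14.3, 24.3 and 5.61 CPM in HM-Wnt (-5.25 ± 1.10, adjusted p = 0.013), as were Cyp2b10 and Cyp3a16. Cyp3a11, the main drug oxidase of mouse liver, was at 519, 378 and 421 CPM in MM against 736, 1223 and 352 CPM (-0.81 ± 0.60, adjusted p = 0.419) and did not pass, and the libraries of the media overlapped. Reads shared by paralogs of these families make single members uncertain. Of 25 tested conjugation enzymes 8 were higher and none lower (9 and 1 under the block). The glycosyltransferase Ugt3a2 was at 60.1, 60.1 and 21.9 CPM in MM against 0.587, 0.611 and 0.210 CPM (6.51 ± 0.74, adjusted p = 0.00084). The sulfotransferase Sult1a1 was at 208, 408 and 144 CPM in MM against 80.9, 102 and 57 CPM (1.66 ± 0.39, adjusted p = 0.021). Ugt2b36 (2.01 ± 0.56, adjusted p = 0.040) and the acetyltransferase Nat8 (2.12 ± 0.59, adjusted p = 0.042) were higher too. Of these drug metabolism calls, that of Ugt3a2 held with any 1 library left out. Cyp2c37 did not pass without MM replicate 1 (adjusted p = 0.056). Sult1a1 did not pass without any 1 of MM replicate 2 and HM-Wnt replicates 1 and 3 (adjusted p 0.071 to 0.085). Ugt2b36 and Nat8 did not pass without any 1 of MM replicates 1 and 2 and HM-Wnt replicates 1, 2 and 3 (adjusted p 0.085 to 0.144). For higher P450 genes, the count was 5 without HM-Wnt replicate 1 and 7 without MM replicate 1 and HM-Wnt replicate 3. For lower P450 genes, the count was 1 without MM replicate 1. For conjugation enzymes, the count was 2 without MM replicate 2 and HM-Wnt replicate 3, 3 without MM replicate 1 and 4 without HM-Wnt replicate 1.

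Genes of amino acid breakdown were higher in part. Of 21 tested catabolic genes 9 were higher and none lower, with a median of 1.49. Along the tryptophan pathway, Tdo2, its first enzyme, was at 119.8, 95 and 25.7 CPM in MM against 4.09, 7.57 and 2.05 CPM in HM-Wnt (4.12 ± 0.82, adjusted p = 0.011). Kmo was at 134, 109 and 49.4 CPM in MM against 8.36, 8.28 and 5.09 CPM (3.74 ± 0.56, adjusted p = 0.0027), and Kynu had a value of 3.51 ± 0.65, adjusted p = 0.0071. In methionine metabolism, Mat1a, which makes S-adenosylmethionine in adult liver, was at 2566, 2343 and 1452 CPM in MM against 346, 268 and 160.2 CPM (3.04 ± 0.48, adjusted p = 0.0036). Bhmt, which remethylates homocysteine, was at 49.1, 62.4 and 14.2 CPM in MM against 0.517, 0.752 and 0.131 CPM (6.34 ± 1.26, adjusted p = 0.010). MM replicate 3 was the lowest MM library for all 5 and lay above every HM-Wnt library. Amdhd1, of histidine breakdown, was higher (2.52 ± 0.33, adjusted p = 0.0014), as were Hgd, Ftcd and Prodh, and Fah, the last enzyme of tyrosine breakdown, did not pass (0.45 ± 0.45, adjusted p = 0.564). Of 14 urea cycle and nitrogen genes 2 were higher and none lower (4 and 1 under the block), beside 6.81% higher over all genes. They were the alanine transaminases Gpt, at 71.2, 92 and 58.6 CPM in MM against 21.8, 25.7 and 26.2 CPM (1.59 ± 0.20, adjusted p = 0.0011), and Gpt2 (0.83 ± 0.23, adjusted p = 0.042), while Glud1 did not pass (-0.42 ± 0.23, adjusted p = 0.258). HM-Wnt held nicotinamide and MM did not. Of 16 tested genes of NAD metabolism 3 were higher and none lower: Naprt, which makes NAD from nicotinic acid (1.31 ± 0.27, adjusted p = 0.013), the deacetylase Sirt3 (1.05 ± 0.25, adjusted p = 0.023) and the oxidase Aox3 (1.02 ± 0.25, adjusted p = 0.026). Nampt, which salvages nicotinamide, and the methyltransferase Nnmt did not pass. Of these amino acid and NAD calls, those of Tdo2, Kmo, Kynu, Mat1a, Bhmt, Amdhd1 and Gpt held with any 1 library left out. Gpt2 did not pass with any 1 of the 6 libraries left out (adjusted p 0.052 to 0.156). Naprt did not pass without any 1 of MM replicates 1 and 2 and HM-Wnt replicate 3 (adjusted p 0.053 to 0.058). Sirt3 did not pass without any 1 of MM replicates 1 and 2 and HM-Wnt replicates 1 and 3 (adjusted p 0.066 to 0.101). Aox3 did not pass without any 1 of MM replicates 1 and 2 and HM-Wnt replicates 2 and 3 (adjusted p 0.068 to 0.114). For NAD metabolism, the count was 0 without MM replicates 1 and 2 and HM-Wnt replicate 3.

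Folding factors of the endoplasmic reticulum were higher in part. The list counts of this paragraph stand beside 6.81% higher and 4.58% lower over all genes (11% and 8.62% under the block). Of 21 genes of the ATF4 and unfolded protein responses 6 were higher and none lower (7 and 1 under the block). Those that rose without the block were Manf, Pdia4, Pdia6, Creld2, Dnajb9 and Hsp90b1. The values were 1.24 ± 0.25, adjusted p = 0.011 for Manf and 1.15 ± 0.26, adjusted p = 0.018 for Pdia4. Pdia6 was at 791, 589 and 589 CPM in MM against 304, 303 and 332 CPM in HM-Wnt (1.07 ± 0.19, adjusted p = 0.0058). Creld2 (1.11 ± 0.20, adjusted p = 0.0062), Dnajb9 (1.03 ± 0.15, adjusted p = 0.0025) and Hsp90b1 (0.74 ± 0.18, adjusted p = 0.023) followed. Hspa5, the central chaperone, did not pass (0.61 ± 0.24, adjusted p = 0.116), nor did Atf4, Trib3 or Chac1. The list's median was 0.35, and -0.002 on log2(TPM + 1). No gene passed among 16 NRF2 targets, 22 interferon and antigen presentation genes and 6 simple epithelial keratins in edgeR. At an unadjusted p under 0.05 there were 2, 5 and 2, DESeq2 called 0, 3 and 1, and the block called 1 NRF2 target, Nqo1. Krt8 was at 997, 1173 and 949 CPM in MM against 617, 687 and 889.7 CPM (0.51 ± 0.23, adjusted p = 0.167). Of 18 chemokine and inflammatory genes 2 were higher, Birc3 and Cxcl12, the latter at 35.4, 45.8 and 48.4 CPM in MM against 7.89, 10.7 and 3.99 CPM (2.51 ± 0.44, adjusted p = 0.0056). Of 15 annexins and S100 proteins 3 were higher (5 under the block), S100a13, Anxa5 (0.74 ± 0.21, adjusted p = 0.042) and S100a10 (0.66 ± 0.14, adjusted p = 0.015). Of 19 integrins and laminins 3 were lower: Lamb2 (-1.62 ± 0.44, adjusted p = 0.036), Itga3 (-1.32 ± 0.38, adjusted p = 0.046) and Lama5 (-1.17 ± 0.31, adjusted p = 0.033). Of 20 actin and tubulin genes Tubb2a was higher (1.44 ± 0.35, adjusted p = 0.023) and Tubb6 lower (-0.71 ± 0.18, adjusted p = 0.028), with 2 each under the block. Of these calls, those of Pdia6, Creld2, Dnajb9 and Cxcl12 held with any 1 library left out. Manf did not pass without MM replicate 1 (adjusted p = 0.051). Pdia4, Hsp90b1, Lama5 and Tubb6 did not pass without any 1 of MM replicates 1 and 2 and HM-Wnt replicates 1 and 3 (adjusted p 0.056 to 0.129). Anxa5 did not pass without any 1 of MM replicates 1, 2 and 3 and HM-Wnt replicates 1 and 2 (adjusted p 0.053 to 0.146). S100a10 did not pass without any 1 of MM replicates 1 and 2 and HM-Wnt replicate 1 (adjusted p 0.055 to 0.075). Lamb2 and Itga3 did not pass without any 1 of MM replicates 1, 2 and 3 and HM-Wnt replicates 1 and 3 (adjusted p 0.055 to 0.181). Tubb2a did not pass without any 1 of MM replicates 1 and 2 and HM-Wnt replicates 1, 2 and 3 (adjusted p 0.061 to 0.098). For higher annexins and S100 proteins, the count was 0 without MM replicates 1 and 2 and HM-Wnt replicate 1 and 1 without MM replicate 3 and HM-Wnt replicate 2. For lower integrins and laminins, the count was 0 without MM replicates 1 and 2 and HM-Wnt replicates 1 and 3. For folding and stress genes, the count was 3 without MM replicate 1.

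Transcripts of the mitochondrial genome took 2.16, 2.66 and 3.44% of the counts in MM and 1.80 to 1.83% in HM-Wnt. All 13 coding genes had positive fold changes and 5 passed, among them the complex I genes mt-Nd2, at 1056, 1108 and 1199.6 CPM in MM against 552, 615 and 430.3 CPM in HM-Wnt (1.07 ± 0.25, adjusted p = 0.020), and mt-Nd5 (1.03 ± 0.27, adjusted p = 0.033), and the complex IV gene mt-Co1 (0.86 ± 0.22, adjusted p = 0.028). Also called were mt-Nd1 (0.93 ± 0.26, adjusted p = 0.039) and mt-Nd6 (1.24 ± 0.36, adjusted p = 0.049). At 1 week the 13 genes had a median log2 fold change of -0.41, against 0.52 at 2 weeks. The mitochondrial share at 1 week was 2.5, 1.99 and 2.23% in MM and 2.61, 3.51 and 2.2% in HM-Wnt. A high mitochondrial share is also a sign of RNA from stressed cells, and its part here was not tested. For called mitochondrial genes, the count was 0 without MM replicates 1 and 2 and HM-Wnt replicates 1 and 3 and 1 without MM replicate 3 and HM-Wnt replicate 2.

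The same comparison at 1 week, in libraries of its own, shows how much of the difference at 2 weeks was there earlier. At 1 week 385 of 12989 genes were called (2.96%), 229 higher (1.76%) and 156 lower (1.2%). Of the 1479 genes called at 2 weeks, 273 (18.5%) were also called at 1 week, which is 70.9% of the 1-week calls, and all 273 had the same direction. Of the 1479, 1407 (95.1%) had a fold change of the same sign at 1 week, with a median size of 0.73 on the log2 scale against 1.31 at 2 weeks, where they were chosen. Slc2a2 (5.32 ± 0.73 at 1 week), Igfbp1 (-2.36 ± 0.31) and Stc1 (-2.86 ± 0.35) were already called. These 3 were chosen after their values were seen, as were 5 genes with values nearer to 0 at 1 week, namely Glul (0.08 ± 0.34), Fabp1 (0.60 ± 0.62), Slc2a1 (0.04 ± 0.39), Lgr5 (-1.15 ± 0.47) and Axin2 (-1.09 ± 0.51). None of the 5 was called at 1 week. The difference of the medium effect between the times was tested for each gene, and edgeR called 0 of 12989 (0%), with 952 genes at an unadjusted p under 0.05. Limma on log2(TPM + 1) called none either, with 1157 at an unadjusted p under 0.05, and DESeq2 called 46, with 1125. The blocked edgeR fit called none, with 1748 at an unadjusted p under 0.05. A call at 2 weeks without 1 at 1 week is therefore not in itself a difference between the times.

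**Figure D5:**
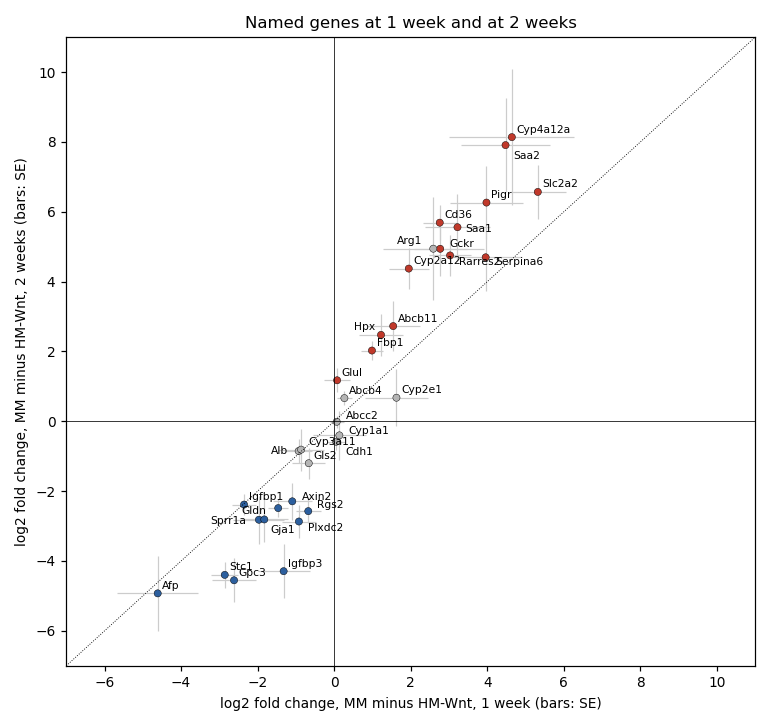
Log2 fold changes between MM and HM-Wnt at 1 week (x axis) and at 2 weeks (y axis) for the 10 highest and 10 lowest genes and other genes the study names, with SE bars, coloured by the call at 2 weeks and with the line of equal values dotted. The called points lie farther from 0 at 2 weeks, the time on which the 20 genes were chosen, with Slc2a2 at 5.32 on the x axis and 6.57 on the y axis.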

How the data were processed

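Bulk RNA-seq libraries were made with SMARTseq2 and Nextera, which do not mark strand. Per the labels and the study's methods, the authors used STAR and GRCm39 for alignment and featureCounts for read assignment, and they deposited whole-number counts per gene and library beside TPM. The study's methods name exons, transcripts and CDS for the assignment, and which of these the deposited counts hold, the strand setting and the treatment of multi-mapping reads are not given in the sources used here. The authors made the TPM from the counts and a deposited gene length close to the whole gene span, so the TPM scale favours short genes. Of 37 libraries in the table, 27 were mapped to a condition by the labels and 10 were not used.

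The counts were fitted with edgeR 4.0.16 in R 4.3.3 (TMM scaling, filterByExpr at its default minima of 10 counts and 15 in total, robust quasi-likelihood test, prior count 2) over the 12 HepOrg libraries, with 1 mean per medium and time. P-values were adjusted over all 12989 genes with the Benjamini-Hochberg method and called under 0.05. CPM are TMM-normalised. DESeq2 1.42.0 and limma 3.58.1 served as alternatives, limma on log2(TPM + 1) for genes with a TPM of at least 1 in 3 libraries. Same-numbered libraries deviated together from their group means in 18 of 18 pairs (r of 0.127 to 0.503), against 2 of 36 pairs of unlike number over 0.1, and so the number was also used as a block. Between the groups compared, the r of MM replicate 1 was 0.189 with HM-Wnt replicate 1 and 0.203 with HM-Wnt replicate 2. On simulated counts for this comparison, with 12989 genes, the edgeR fit recovered 92% of 100 genes changed by 2 and 34% of 100 changed by 1 on the log2 scale. The changed genes were drawn from those with a mean log2 CPM above 1, so recovery of less abundant genes was not tested. No replicate effect was simulated. Positions are from GENCODE for GRCm39 and promoters from RefSeq for GRCm38.p6. Promoters on chromosome 18 were left out of the search, so genes there count as without a promoter.

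Named genes were those the study names for the media, the 10 highest and 10 lowest calls among those whose media did not overlap and whose mean log2 CPM was 5 or more, and in each list up to 6 calls by size and 3 abundant genes that did not pass. The genes and lists were chosen with earlier results of these data known. The lists hold some genes that are counted but not reported here by name.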

Additional observations from a re-analysis of the deposited data

How the results depend on the processing

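Of the 1479 calls (884 higher and 595 lower), the count was 2494 with DESeq2 (1370 and 1124), 2551 with the replicate block (1431 and 1120), 7 with all 27 libraries in 1 fit (6 and 1) and 965 with a log2 fold change of at least 1 in size (577 and 388). Leaving out 1 library gave 577 to 1594 calls, 391 to 947 higher and 186 to 647 lower. On log2(TPM + 1) 387 genes were higher and on log2(TPM + 0.1) 378, with 862 and 820 lower. RLE size factors (1485), no filter on low counts (1254), at least 10 counts in every library (1335) and the 6 libraries alone (1804) stayed within 1.5 times. The difference between the times gave 46 calls with DESeq2 and 0 with edgeR. List medians depended on the scale as well. On log2(TPM + 1) the median was 0.79 for fatty acid oxidation, against 1.56 in edgeR, and 0.13 for conjugation enzymes, against 0.80. For gluconeogenesis and liver glycolysis it was 1.57, against 1.56. The cause of these shifts was not tested. Fits with 1 library left out had fewer samples, and the log2(TPM + 1) fit had a median of -0.26 over its own set of genes.

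Fold changes that turned sign were all of genes that did not pass. On log2(TPM + 1) and log2(TPM + 0.1) they were Cyp2e1 (-0.043 and -0.05), Myc (-0.28 and -0.28) and Hnf4a (-0.031 and -0.032). With 1 library left out, the ranges were -0.185 to 0.089 for Abcc2, -0.826 to 0.137 for Cyp1a1, -0.626 to 1.137 for Cyp2e1, -0.155 to 0.161 for Myc and -0.264 to 0.146 for Egfr. With the replicate block, genes given with values changed their call only where a blocked p stands beside them.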
